A study of Mus musculus with 10 samples.

Results

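Hyaluronan is a long, unsulfated sugar chain of glucuronic acid and N-acetylglucosamine that fills the space between cells and holds water. Synthases in the plasma membrane build the chain and push it out of the cell, and binding proteins, hyaluronidases and surface receptors then crosslink, cut and take up the polymer. In the lung it is abundant around birth and declines as the septa thin. The 9 genes described here were picked by name from the 54532 genes of the deposited expression table. They are the 3 synthases Has1, Has2 and Has3, the breakdown genes Cemip, Hyal1 and Hyal2, the receptors Cd44 and Lyve1, and Tnfaip6, which encodes the hyaluronan-binding protein TSG-6.

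The lungs came from wild-type C57/BL6 mice aged 14 days (P14). In the IncPBF group (5 lungs) a fistula between the abdominal aorta and the inferior vena cava had been made at P7, which raises pulmonary blood flow through a shunt outside the lung. In the sham group (5 lungs) the abdomen was opened at P7 without the puncture. Bulk RNA-sequencing measured all cells of a lung together, so fewer cells of a type and less RNA per cell cannot be told apart. Levels are in FPKM (fragments per kilobase of gene, scaled to the size of the library) and rest on 16103423 to 20318525 fragments on genes per lung. The labels do not state that each library came from a separate mouse, and p-values then measure only the spread between these samples. The surfactant gene Sftpc marked every library as lung, at 9583 to 14074 FPKM, while Sftpb, Ager and Pecam1 fell in IncPBF by 0.64, 0.54 and 0.37 on the log2 scale (adjusted p = 0.000284, 0.00157 and 0.00405 from limma, and 0.0614, 0.122 and 0.177 with log2 Xist FPKM as a covariate). The labels give no sex. Xist, which coats the inactive X chromosome, had 52.4 to 66.5 FPKM in IncPBF lungs 2 to 5, against 0.0144 FPKM in IncPBF lung 1. No sham lung had more than 0.0770 FPKM of it. The Y-linked gene Ddx3y had 18.6 FPKM in IncPBF lung 1 and 21.8 to 24.6 FPKM in the sham lungs, while the other IncPBF lungs had no more than 0.00926 FPKM. Sex-linked expression thus moved with the group in all but IncPBF lung 1. Its part in the differences was not tested beyond fits with log2 Xist FPKM as a covariate, which are given where a call was lost.

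The members were chosen with this same contrast in view, so their values are a description and carry no test. In 6 of the 9 genes the 5 IncPBF lungs did not overlap the 5 sham lungs, against 23.2% of all 15388 genes that averaged 0.5 FPKM or more. Only 7 of the 9 members reached that average, and all 6 were among them. Of the 6, Cemip, Tnfaip6, Has2 and Cd44 were higher in IncPBF, against 12.0% of all those genes, and Lyve1 and Hyal1 were lower, against 11.2%. Since the members were chosen on this contrast, nothing is read from these counts. Has1, Has3 and Hyal2 overlapped, and Has1 and Has3 lay under 0.5 FPKM on average. The median difference in log2(FPKM + 0.1), IncPBF minus sham, was 0.91 over the 7 members that averaged 0.5 FPKM or more. Over all 9 members it was -0.03, and over the 15388 genes 0.01. Nothing is read from these medians, for the same reason. The scale of log2(FPKM + 0.1) holds for every log2 difference below, and it understates the change of low genes.

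**Figure D1:**
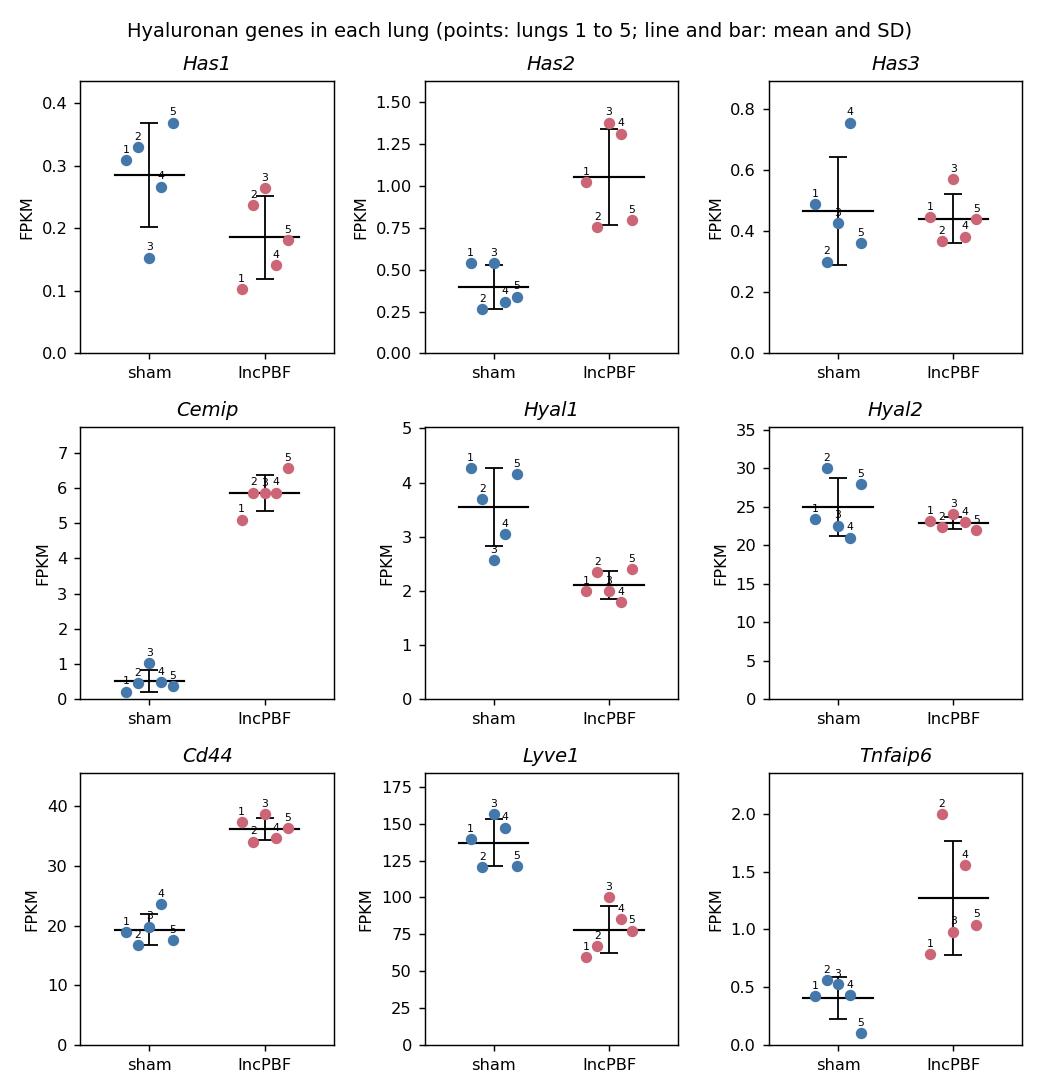
FPKM of the 9 hyaluronan genes (vertical axes, linear from 0) in the 5 sham and 5 IncPBF lungs, with each point 1 lung labelled by its number and the line and bar the mean and SD. Cemip, Has2, Cd44 and Tnfaip6 lie higher in IncPBF without overlap, Hyal1 and Lyve1 lower, and Has1, Has3 and Hyal2 overlap.

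Promoter sequence was read for the members whose levels parted furthest, and for Hyal1, which was lower. The stretches are taken from RefSeq on GRCm38.p6, run 5′ to 3′ on the gene's strand and end before the first start that RefSeq or GENCODE M21 annotates. Capitals mark matches on either strand to 5 motifs searched: the TATA box TATAAA, the AP-1 motif TGANTCA, the STAT motif TTCNNNGAA, the TEAD motif GGAATG and the GC box GGGCGG. No match overlapped that of another motif in these stretches.
Cemip, chr7:84086506-84086755, minus strand: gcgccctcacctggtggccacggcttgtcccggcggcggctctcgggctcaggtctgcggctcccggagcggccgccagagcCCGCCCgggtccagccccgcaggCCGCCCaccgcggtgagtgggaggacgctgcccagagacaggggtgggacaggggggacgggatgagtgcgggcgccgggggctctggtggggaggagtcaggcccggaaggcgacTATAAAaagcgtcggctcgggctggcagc
Tnfaip6, chr2:52037863-52038008, plus strand: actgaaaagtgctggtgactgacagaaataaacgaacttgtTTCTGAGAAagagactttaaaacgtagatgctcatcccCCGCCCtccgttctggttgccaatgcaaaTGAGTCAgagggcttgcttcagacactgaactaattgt
Hyal1, chr9:107576700-107576926, plus strand: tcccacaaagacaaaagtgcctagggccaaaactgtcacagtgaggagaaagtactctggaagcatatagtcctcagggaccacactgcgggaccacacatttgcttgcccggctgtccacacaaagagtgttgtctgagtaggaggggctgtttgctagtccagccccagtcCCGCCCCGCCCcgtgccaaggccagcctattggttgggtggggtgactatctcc

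Of the 9 members, 6 had a RefSeq promoter entry here, and Has2, Has3 and Lyve1 had none. In the 250 bases before the RefSeq start, Cemip held 26 CpG dinucleotides and 75.2% G and C, against medians of 6 and 52.4% over all 32851 promoters. Its TATA box match began at base -29, and 12.4% of all promoters hold such a match. Tnfaip6, with 8 CpG dinucleotides, held the AP-1 match (6.75% of all promoters) and the STAT match (7.02%). The GC box, found in 32.7% of all promoters, was in the windows of Cemip, Tnfaip6, Hyal1 and Hyal2. The TEAD motif, in 12.6% of all promoters, was matched in Hyal2 and, outside the stretch printed, in Tnfaip6. The windows of Cd44 and Has1 held none of the 5 motifs. A match describes letters only.

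All 3 synthases were expressed at a low level. Has2, which makes long chains and is the synthase needed for development of the embryonic heart, was 1.03, 0.756, 1.38, 1.31 and 0.796 FPKM in IncPBF lungs 1 to 5. In sham lungs 1 to 5 it was 0.539, 0.263, 0.539, 0.309 and 0.339 FPKM. Every IncPBF lung was above every sham lung, and sham lungs 1 and 3 came nearest. The means were 1.05 ± 0.287 and 0.398 ± 0.132 FPKM (SD, n = 5 per group), a log2 difference of 1.22 (standard error 0.25). Has2 drew 60 to 108 fragments per IncPBF lung and 21 to 43 per sham lung. A pseudocount of 1 in place of 0.1 gave 0.55. Has2os, the antisense RNA of the Has2 locus, was 0.262 to 0.385 FPKM in IncPBF and 0.0964 to 0.359 FPKM in sham, with overlap. It shares 182 exon bases with Has2 on the opposite strand, 4.29% of the exon bases of Has2.

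Has1, which makes hyaluronan at a lower rate than its relatives, was 0.103, 0.236, 0.264, 0.141 and 0.181 FPKM in IncPBF lungs 1 to 5. It was 0.308, 0.329, 0.153, 0.266 and 0.369 FPKM in sham lungs 1 to 5. The groups overlapped only through sham lung 3. The log2 difference was -0.44, and -0.89 between IncPBF lung 1 and the sham lungs, the 6 lungs with low Xist. With 9 to 22 fragments in IncPBF and 13 to 29 in sham, counting error alone is large for this gene. Has3 was 0.446, 0.368, 0.568, 0.382 and 0.438 FPKM in IncPBF lungs 1 to 5 and 0.489, 0.299, 0.425, 0.754 and 0.360 FPKM in sham lungs 1 to 5. The means of Has3 were 0.440 ± 0.0793 and 0.466 ± 0.176 FPKM (SD, n = 5 per group), a difference smaller than either SD. The end of Has3 shares 352 exon bases with Chtf8 on the opposite strand, and Chtf8 averaged 26.2 FPKM.

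The make-up of the synthase RNA differed along with its sum. Has1, Has2 and Has3 together were 1.36 to 2.21 FPKM in IncPBF and 0.891 to 1.34 FPKM in sham. Has2 made up 65.1%, 55.6%, 62.4%, 71.5% and 56.2% of this sum in IncPBF lungs 1 to 5. In sham lungs 1 to 5 it made up 40.3%, 29.5%, 48.3%, 23.2% and 31.7%. Has2 had the highest level of the 3 in 5 of 5 IncPBF lungs and in 2 of 5 sham lungs, where Has1 led in 2 and Has3 in 1. These shares compare levels per gene length within a lung and do not depend on the scaling of the libraries. They do rest on few fragments, as few as 9 in a lung for Has1 and 36 for Has3. The part of Chtf8, which shares 352 exon bases with Has3 and averaged 26.2 FPKM, in the share of Has3 was not tested.

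Cemip, whose protein binds hyaluronan and drives its breakdown in fibroblasts, differed most of the members. It was 5.10, 5.87, 5.85, 5.87 and 6.56 FPKM in IncPBF lungs 1 to 5. In sham lungs 1 to 5 it was 0.214, 0.460, 1.02, 0.483 and 0.376 FPKM. The means were 5.85 ± 0.515 FPKM in IncPBF and 0.511 ± 0.304 FPKM in sham (SD, n = 5 per group). Relative to the mean the sham lungs thus varied more, with lung 3 the highest of them, though the SD in FPKM was larger in IncPBF. The ratio of the group means was 11.4, and the log2 difference was 3.41 (standard error 0.26). The fragments were 1206 to 1665 in IncPBF and 47 to 235 in sham. A pseudocount of 1 lowered the log2 difference to 2.20. The gene (ENSMUSG00000052353) lies on the minus strand of chromosome 7 from 83932857 to 84086502 on GRCm38, and none of its 50-base words occurs in the transcripts of another gene in GENCODE M21.

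Hyal1 encodes the lysosomal hyaluronidase and Hyal2 one anchored at the cell surface, and both lie with Hyal3 in a stretch of 19.4 kb on chromosome 9. Hyal1 was 2.00, 2.35, 1.99, 1.80 and 2.40 FPKM in IncPBF lungs 1 to 5 and 4.26, 3.70, 2.57, 3.05 and 4.15 FPKM in sham lungs 1 to 5. All IncPBF lungs were below all sham lungs, with a gap from 2.40 to 2.57 FPKM at sham lung 3. The log2 difference was -0.71 (standard error 0.14). Of the exon bases of Hyal1, 50.8% are also exon of Naa80, an acetyltransferase gene on the same strand that the table lists as Nat6, so the fragments of these genes cannot be fully told apart. Nat6 itself was 6.76 ± 0.539 FPKM in IncPBF and 8.47 ± 1.04 FPKM in sham (SD, n = 5 per group), with a log2 difference of -0.32 (adjusted p = 0.0199 from limma, and 0.463 with the Xist covariate).

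Hyal2 lay close in both groups. It was 23.1, 22.3, 24.0, 22.98 and 22.0 FPKM in IncPBF lungs 1 to 5 and 23.4, 30.0, 22.5, 21.0 and 27.9 FPKM in sham lungs 1 to 5. The IncPBF values all fell inside the sham range, and the log2 difference was -0.11 (standard error 0.09). Within a lung the balance of the breakdown genes was different. The ratio of Cemip to Hyal1 was 2.50 to 3.27 in IncPBF and 0.0502 to 0.397 in sham. Cemip and Hyal1 parted in opposite directions, so their ratio could not overlap. Cemip made up 16.9% to 21.2% of the summed FPKM of Cemip, Hyal1 and Hyal2 in IncPBF and 0.768% to 3.91% in sham.

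Cd44, the main surface receptor for hyaluronan on leukocytes, mesenchyme and epithelium, was 37.3, 34.1, 38.7, 34.7 and 36.4 FPKM in IncPBF lungs 1 to 5. It was 18.9, 16.8, 19.8, 23.6 and 17.5 FPKM in sham lungs 1 to 5. The lowest IncPBF lung stood well above the highest sham lung, number 4. The means were 36.2 ± 1.87 and 19.3 ± 2.65 FPKM (SD, n = 5 per group), a ratio of 1.87 and a log2 difference of 0.91 (standard error 0.08). With 2068 to 5115 fragments per lung, Cd44 was among the best measured members. Its 9 transcripts in GENCODE M21 were counted as 1 gene, so splice forms are not separated. Of 6 leukocyte markers, 1 rose (Itgam, from 0.613 ± 0.199 to 1.33 ± 0.145 FPKM, adjusted p = 0.00242 from limma, and 0.0982 with the Xist covariate) and 0 fell, against 32.3% of all genes tested that passed in either direction. The pan-leukocyte gene Ptprc was 2.90 to 4.25 FPKM in IncPBF and 2.94 to 4.098 FPKM in sham, and the summed level of the list was 20.2 to 33.2 against 16.2 to 25.9 FPKM. S100a8, the most abundant of them, had a log2 difference of 0.40 (adjusted p = 0.269 from limma). The part of leukocyte content in the level of Cd44 was not tested.

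Lyve1, a receptor of lymphatic endothelium that some tissue macrophages also carry, had the highest level of all 9 members in both groups. It was 59.6, 67.1, 100.4, 85.5 and 77.6 FPKM in IncPBF lungs 1 to 5. In sham lungs 1 to 5 it was 139.5, 120.4, 156.5, 147.3 and 121.5 FPKM. All IncPBF lungs were below all sham lungs, and IncPBF lung 1 was the lowest. The log2 difference was -0.83 (standard error 0.13), from 3364 to 5413 fragments in IncPBF and 6174 to 8599 in sham. The log2 difference was -1.21 with log2 Xist FPKM as a covariate. The level of Lyve1 was 1.6 to 2.60 times that of Cd44 in IncPBF and 6.25 to 7.90 times in sham. Lyve1 and Cd44 parted in opposite directions, so their ratio could not overlap.

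**Figure D2:**
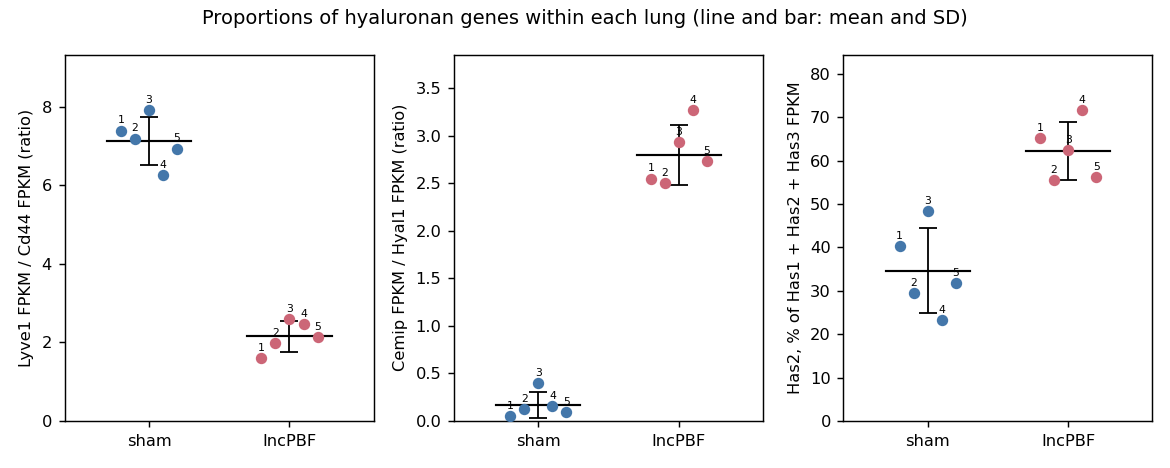
Proportions within each lung (points, labelled by lung number; line and bar, mean and SD), on linear axes from 0: Lyve1 over Cd44, Cemip over Hyal1, and Has2 as a percent of the summed synthase FPKM. None of the 3 measures overlapped between the groups, with Lyve1 over Cd44 at 6.25 to 7.90 in sham and 1.6 to 2.60 in IncPBF. For Lyve1 over Cd44 and Cemip over Hyal1 this was fixed in advance, since the genes of each ratio parted in opposite directions. All were chosen on this contrast.

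Markers of lymphatic endothelium and of interstitial macrophages did not all move with Lyve1. In sham lungs Lyve1 averaged 137 FPKM, above every marker of both lists, the highest being Pdpn at 59.5 FPKM. Other cells that may carry Lyve1 were not examined. Of the 6 lymphatic markers 5 were tested, and 0 rose and 2 fell, against 32.3% of all genes tested that passed. Those were Flt4, the receptor of lymphatic growth factors (log2 fold change -0.56, adjusted p = 0.00553), and Pdpn (-0.36, adjusted p = 0.00839), which alveolar type I cells also express, both from limma. With the Xist covariate neither passed (adjusted p = 0.221 and 0.259). The lymphatic transcription factor Prox1 was 0.458 to 0.746 FPKM in IncPBF and 0.536 to 0.712 FPKM in sham (log2 fold change -0.06, adjusted p = 0.824 from limma). The list summed to 55.1 to 66.9 FPKM in IncPBF and 71.7 to 140.7 FPKM in sham, with no marker at 0 in all lungs. Pdpn was the largest part of this sum, with means of 46.1 and 59.5 FPKM, so the sum cannot stand for lymphatic content alone. Sham lungs 2 and 3 stood out through Ccl21a at 59.3 and 41.2 FPKM, a gene with near-identical copies whose level is uncertain. Of 6 interstitial macrophage markers 4 were tested and 1 fell, the scavenger receptor Cd163, from 2.45 ± 1.08 to 0.632 ± 0.163 FPKM (SD, n = 5 per group, adjusted p = 0.000815 from limma, and 0.0982 with the Xist covariate). Pf4, with the highest level of that list, was 9.31 to 13.7 FPKM in IncPBF and 8.92 to 16.1 FPKM in sham. That list summed to 18.04 to 25.4 FPKM in IncPBF and 20.9 to 31.2 FPKM in sham. The part of lymphatic, other endothelial and macrophage content in the level of Lyve1 was not tested.

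**Figure D3:**
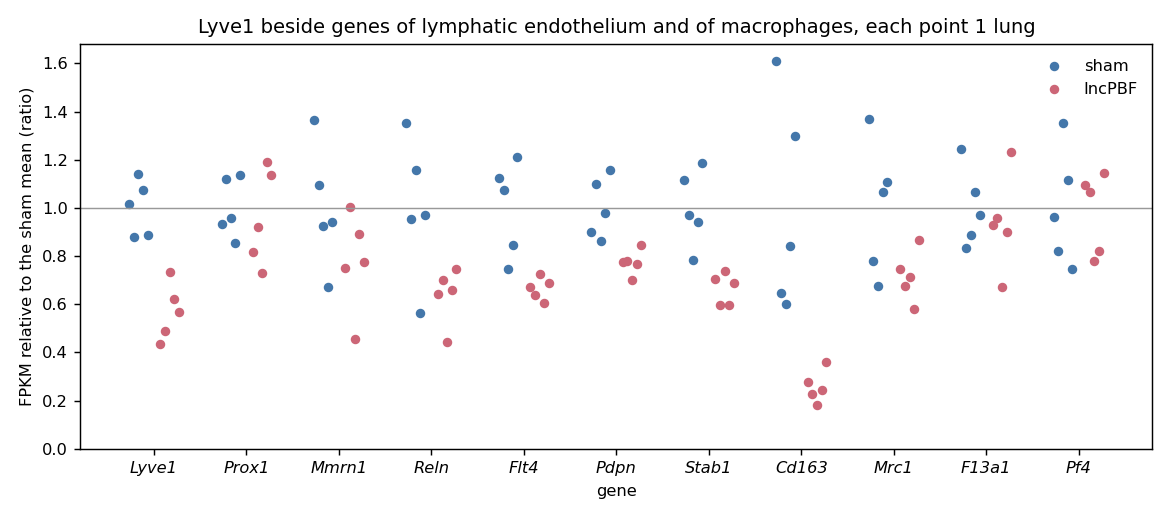
FPKM of Lyve1, of 5 lymphatic markers (Prox1, Mmrn1, Reln, Flt4, Pdpn), of the scavenger receptor Stab1 and of 4 macrophage markers (Cd163, Mrc1, F13a1, Pf4), each divided by its sham mean (vertical axis, linear from 0), with each point 1 lung. IncPBF lungs are below all sham lungs for Lyve1, Flt4, Pdpn, Stab1 and Cd163, and overlap them for the other genes. The lymphatic gene Ccl21a is left out for its spread. The macrophage markers Folr2 and Cd209f, both under 0.5 FPKM on average, are not shown either. Their means were higher in IncPBF than in sham (0.212 against 0.171 FPKM and 0.179 against 0.0987 FPKM), with overlap.

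Tnfaip6, whose product TSG-6 moves heavy chains of inter-alpha-trypsin inhibitor onto hyaluronan and is made under inflammatory signals, was 0.786, 2.00, 0.981, 1.56 and 1.04 FPKM in IncPBF lungs 1 to 5. It was 0.424, 0.559, 0.528, 0.428 and 0.101 FPKM in sham lungs 1 to 5. The groups did not overlap, but both varied widely. The means were 1.27 ± 0.495 and 0.408 ± 0.182 FPKM (SD, n = 5 per group), a log2 difference of 1.47 (standard error 0.35) from 26 to 64 fragments in IncPBF and 3 to 18 in sham. That difference was 0.89 with log2 Xist FPKM as a covariate and 0.68 with a pseudocount of 1. For Cemip, Has2, Cd44 and Hyal1 the same covariate gave 3.15, 1.17, 0.94 and -0.73.

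The order of the levels changed between the groups. In sham lungs it ran, by mean FPKM, Lyve1, Hyal2, Cd44, Hyal1, Cemip, Has3, Tnfaip6, Has2 and Has1. The ranges of Hyal2 and Cd44 overlapped there, as did those of each pair of neighbours from Cemip down to Has1. In IncPBF lungs the order was Lyve1, Cd44, Hyal2, Cemip, Hyal1, Tnfaip6, Has2, Has3 and Has1. Only the ranges of Hyal1 with Tnfaip6 and of Tnfaip6 with Has2 overlapped between neighbours there. Cemip thus passed from the level of the synthases, 0.511 ± 0.304 FPKM, to 5.85 ± 0.515 FPKM (SD, n = 5 per group), above Hyal1.

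Genes with the most similar profile over the 10 lungs were taken by the mean absolute difference of log2(FPKM + 0.1), each gene centred on its own mean. Both groups enter this distance, so a gene with a similar group difference comes out near. Shared regulation was not tested. Nearest to Cemip were Grem1 (0.29), Gm45881 (0.33) and Lrrc15 (0.33). Nearest to Has2 were Kif14 (0.19), Cdca2 (0.19) and Kifc1 (0.19), and nearest to Cd44 were Slc5a3 (0.04), Ccnf (0.07) and Kif15 (0.08). Tnfaip6 was nearest to Actg2 (0.24), Rpp38 (0.24) and Acta2 (0.27). Hyal1 was nearest to Clic5 (0.05), Slit3 (0.06) and Sptbn1 (0.06), and Lyve1 to Flt3l, Epop and Plvap (0.15 each).

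The other genes of hyaluronan metabolism were tested with limma on log2(FPKM + 0.1), with Benjamini-Hochberg adjustment over all 15388 genes. Of 39 such genes 23 were tested, and 5 rose and 4 fell at an adjusted p under 0.05, together 39.1% of those tested. Over all genes tested 32.3% passed, so the share for this list is near the background. Their median log2 difference was -0.05, against 0.01 over all genes. Once log2 Xist FPKM was a covariate, Vcan alone among the 9 genes kept an adjusted p under 0.05, and the other 8 had adjusted p values from 0.0672 to 0.497 (limma).

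Most of the binding proteins of the matrix were scarce at P14, and 6 of 16 were tested. Vcan, versican, the large proteoglycan that binds hyaluronan in loose matrix, rose from 2.22 ± 0.691 to 8.27 ± 0.900 FPKM (SD, n = 5 per group). It was 7.05, 9.02, 9.12, 8.54 and 7.65 FPKM in IncPBF lungs 1 to 5 and 1.62, 2.06, 3.39, 2.21 and 1.81 FPKM in sham lungs 1 to 5, so that the groups lay far apart. Its fold change on the log2 scale was 1.89 with a standard error of 0.17 (limma, adjusted p = 2.4e-05), and 1.62 with the Xist covariate (adjusted p = 0.0128). Itih5, an inter-alpha-trypsin inhibitor heavy chain and the gene of this list with the highest mean over the 10 lungs, rose from 5.20 ± 0.809 to 8.36 ± 0.724 FPKM (adjusted p = 0.000669 from limma). The link protein Hapln1 and the pentraxin Ptx3, which TSG-6 binds, had log2 differences of 0.07 (adjusted p = 0.802) and 0.49 (adjusted p = 0.141) in limma. Acan, Ncan, Hapln2, Hapln3, Hapln4, Itih1, Itih2, Itih3, Ambp and Habp2 were too low to be tested.

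Among 6 other receptors, 1 rose and 2 fell, together 50% of those tested, against 32.3% of all genes tested. Hmmr, which encodes the hyaluronan-mediated motility receptor and is expressed in dividing cells, rose from 1.06 ± 0.226 to 2.20 ± 0.293 FPKM (adjusted p = 0.000625 from limma). Stab1, a scavenger receptor of endothelium and macrophages with the highest level of this list, fell from 14.6 ± 2.31 to 9.69 ± 0.947 FPKM (adjusted p = 0.00256 from limma). Layn, encoding layilin, fell from 6.35 ± 0.522 to 5.27 ± 0.282 FPKM (adjusted p = 0.0132 from limma). Stab2, the clearance receptor for hyaluronan of liver sinusoids, was 0.383 to 0.573 FPKM in IncPBF and 0.466 to 0.761 FPKM in sham, with an adjusted p of 0.334 from limma.

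Of 9 other breakdown genes 5 were tested, and 0 rose and 2 fell, together 40% of those tested, against 32.3% of all genes tested. Cemip2, listed in the table as Tmem2 and coding for a relative of the Cemip protein in the cell membrane, fell from 67.1 ± 13.7 to 48.5 ± 3.38 FPKM (log2 fold change -0.44, standard error 0.12, adjusted p = 0.0182 from limma). Its level was 7.75 to 9.74 times that of Cemip in IncPBF lungs and 55.5 to 395.5 times in sham lungs. Hexa, a lysosomal hexosaminidase subunit, fell from 40.5 ± 2.67 to 35.2 ± 2.07 FPKM (adjusted p = 0.0232 from limma), a call that was lost (adjusted p = 0.0508 to 0.0603) without IncPBF lung 2 or 4 or sham lung 2 or 5, and at an equal total per lung (adjusted p = 0.0681). Hyal3 was 0.489 ± 0.134 and 0.514 ± 0.0911 FPKM. Hyal4 and Spam1 were listed at 0 in all lungs, and Hyal5 and Hyal6 had 3 fragments or fewer in every lung.

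Of the 7 genes that supply the sugar nucleotides 6 were tested, and 2 rose and 0 fell. These were 33.3% of those tested, near the 32.3% of all genes tested. Ugdh, which makes UDP-glucuronic acid, rose from 7.50 ± 0.523 to 9.22 ± 0.202 FPKM (log2 fold change 0.30, standard error 0.06, adjusted p = 0.00252 from limma). Pgm3, an enzyme of the path to UDP-N-acetylglucosamine, rose from 2.72 ± 0.190 to 3.32 ± 0.237 FPKM (adjusted p = 0.0154 from limma). For Ugp2, the most abundant of the 7 genes, the log2 difference was 0.09 (adjusted p = 0.361 from limma). Gfpt2, an enzyme at the head of the hexosamine path, had a log2 difference of -0.38, did not overlap between the groups and missed the threshold (adjusted p = 0.0696 from limma). Gnpnat1 was too low to be tested.

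**Figure D4:**
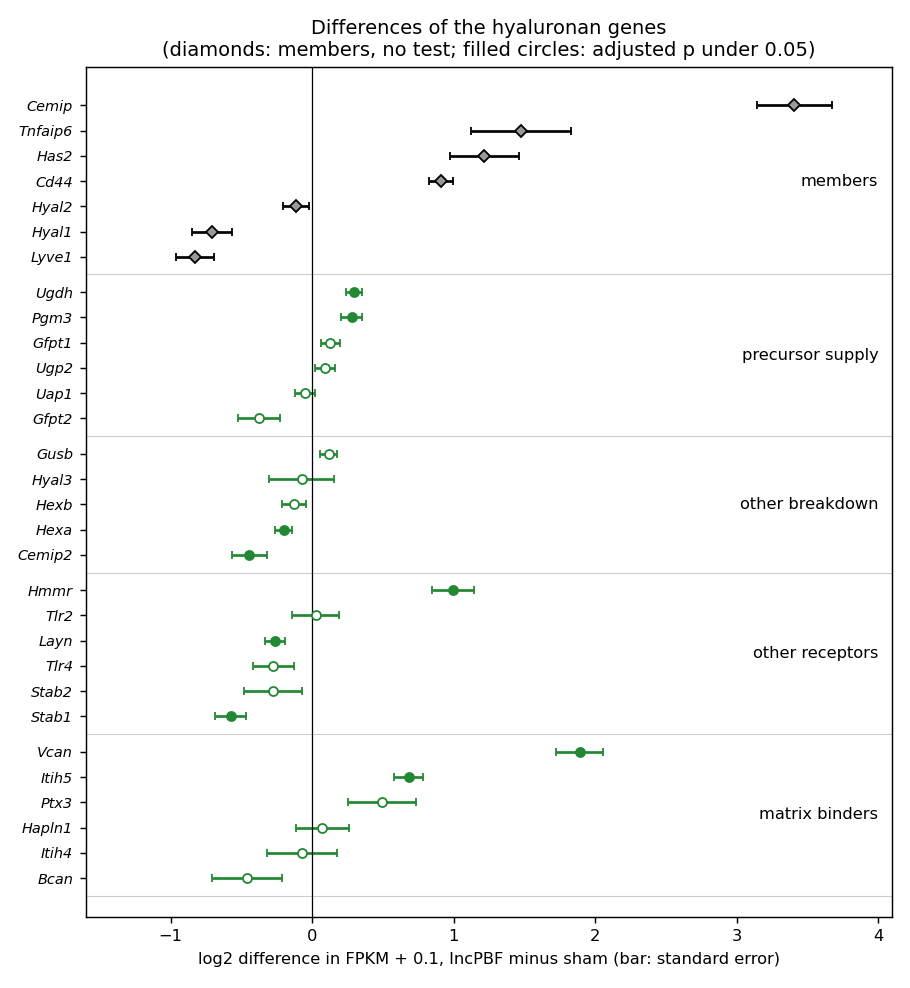
Log2 difference in FPKM + 0.1, IncPBF minus sham (horizontal axis, bar the standard error), of the 7 members above 0.5 FPKM (diamonds, no test) and of the 23 tested genes of 4 related lists (circles, filled at an adjusted p under 0.05). Cemip at 3.41 and Vcan at 1.89 lie furthest to the right, and Lyve1 at -0.83 furthest to the left.

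Markers of fibroblasts, mesothelium and alveolar macrophages did not all move the same way. Of 8 fibroblast markers 2 rose, Col1a1 (log2 fold change 0.35, adjusted p = 0.0392) and Col1a2 (0.32, adjusted p = 0.01002), and 1 fell, Pdgfra (-1.36, adjusted p = 9.01e-05), all from limma, against 32.3% of all genes tested. With the Xist covariate Pdgfra still passed (adjusted p = 0.035), but Col1a1 and Col1a2 did not (adjusted p = 0.782 and 0.429). Col3a1, with the highest level of that list, had a log2 difference of -0.10 (adjusted p = 0.332 from limma), and the list summed to 890.6 to 1074 FPKM in IncPBF and 849.5 to 1039 FPKM in sham. All 4 mesothelial markers tested of 5 fell, against 32.3% of all genes tested that passed in either direction. Krt19, also a gene of airway epithelium, was the most abundant (-0.22, adjusted p = 0.00563 from limma), and Lrrn4 (-1.76, adjusted p = 0.0107 from limma) changed most. With the Xist covariate Krt19 passed (adjusted p = 0.047), and Msln, Upk3b and Lrrn4 did not (adjusted p = 0.344, 0.529 and 0.314). The mesothelial list summed to 64.6 to 84.4 FPKM in IncPBF and 88.2 to 145.3 FPKM in sham. Of 6 alveolar macrophage markers 0 rose and 1, Fabp1, fell (-1.10, adjusted p = 0.00395 from limma, and 0.222 with the Xist covariate), against 32.3% of all genes tested. The alveolar macrophage list summed to 56.0 to 390.3 FPKM in IncPBF and 77.8 to 341.3 FPKM in sham, mostly through Chil3. The part of these cells in the levels of Has1, Has2, Cemip or Tnfaip6 was not tested.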

How the data were processed

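The authors made cDNA libraries with a NEBNext kit, sequenced them on an Illumina NovaSeq and deposited FPKM values per gene and lung. The submitters' processing notes name Bowtie 0.12.2 and the builds hg38, GRCm38 and mm10 without a role. The counting program and its use of strand are not given in the sources used here. The coordinates of all 9 members equal those of GENCODE M21 on GRCm38. The IncPBF columns are abbreviated differently from the titles, so they were tied to the group and not to single samples. Multiplied by gene length and divided by a step fitted for each lung, 100% of values above 0 were whole numbers of fragments (within 0.01). No library occurred more than once.

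The 15388 genes that averaged 0.5 FPKM or more were compared on log2(FPKM + 0.1) with limma 3.58.1 (lmFit, eBayes with trend) in R 4.3.3, IncPBF against sham, without covariates. The methods give a general test for quantitative data and do not say how genes were compared. Genes named are the 9 members, the called and the most abundant genes of each related list, those not measured, the leading markers, Xist and the nearest profiles, with Nat6, Chtf8, the untested or uncalled genes of the related lists and the other markers added after their values were seen. The members, the lists and the tests were chosen with earlier results of these data known. Alternatives were the pseudocount (1 or 0.01), the filter (1 or none), scaling by equal totals, median or quantiles, the replicate number as a block, a log2 Xist covariate, limma-voom on the fragments, and each lung left out. The lungs with Xist under 0.1 FPKM alone were added after seeing the data. The test was checked on simulated data. Sequence work and tables used pandas 2.3.3 in Python 3.11.15, and figures matplotlib 3.10.9. No molecular identifiers are described, so depth limits cover counting error only. Batch, litter and date are not given in the labels.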

Additional observations from a re-analysis of the deposited data

How the results depend on the processing

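The number of members without overlap stayed at 6 under the other scalings and voom, and was 6 to 7 with each lung left out, the 7 without sham lung 3. In the 6 lungs with Xist under 0.1 FPKM IncPBF has 1 lung, which parts from the sham lungs far more easily, so no count is given there. No share over all genes was taken for these alternatives, and nothing is read from the counts. The direction of the 6 members without overlap was kept under every alternative that gave a value. A pseudocount of 1 gave log2 differences of 2.20 for Cemip, 0.55 for Has2 and 0.68 for Tnfaip6. Lyve1 was -1.21 with log2 Xist FPKM as a covariate and -1.19 in the lungs with low Xist, and Has1 was -0.89 there. With each lung left out the differences ran from 3.20 to 3.66 for Cemip, 1.11 to 1.32 for Has2, 1.17 to 1.61 for Tnfaip6, 0.86 to 0.99 for Cd44, -0.92 to -0.74 for Lyve1 and -0.81 to -0.64 for Hyal1. Has3 changed sign, from -0.14 to 0.13. Filters cannot alter a member's difference, and the block and the covariate give no count of overlap.

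Calls among related genes were 5 higher and 4 lower, and 5 and 3 to 5 with each lung left out. At an equal total per lung they were 7 higher and 3 lower, and with quantiles or voom 5 and 5. The balance of higher and lower calls among related genes thus depended on the scaling. The Xist covariate moved them to 1 higher and 0 lower (unadjusted p under 0.05 in 4 and 2), and the marker calls from 3 higher and 9 lower to 0 and 2, Pdgfra and Krt19 (unadjusted in 2 and 5), in limma, with 741 calls over all genes against 4970. The cause was not tested. Xist and group differ in IncPBF lung 1 alone. The labels number lungs 1 to 5 in both groups, but same-numbered lungs did not deviate together (correlations -0.07 to 0.09), and the replicate block gave 5 higher and 5 lower related genes and 4872 calls over all genes. It lost none of the 9 calls. Depth limits the 3 synthases and Tnfaip6, with as few as 9 fragments in a lung for Has1, 21 for Has2, 36 for Has3 and 3 for Tnfaip6.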
